A study of Mus musculus with 20 samples.

Results

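Organoids from MMTV-Neu-NDL mammary tumors were compared with organoids from normal mammary gland, gene by gene, in a model of their own. The 6 libraries of these groups were chosen by their labels out of 20 in the series, and every gene with enough counts was tested. Neu-NDL organoids (n = 3) came from mammary tumors of FVB mice that carry the MMTV-Neu-NDL transgene, and WT organoids (n = 3) from the mammary gland of wild type FVB mice. Both were grown in matrigel with FGF2 for 6 days before polyadenylated RNA was taken, so the 2 groups share strain, gel, growth factor and time in culture. The culture protocol in the labels is worded for MMTV-PyMT tumors and stands with these libraries as well. The groups differ in genotype and also in tissue of origin, tumor against gland, and these cannot be told apart here. The mouse mammary tumor virus promoter (MMTV) drives the transgene mainly in mammary epithelium. Organoids of MMTV-PyMT tumors, whose oncogene is the polyoma virus middle T antigen, were used for 1 further comparison, with 3 libraries titled day 6 and 2 whose titles give no day and whose labels give 6 days.

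ErbB2, called Neu in rodents, is a receptor tyrosine kinase that has no known ligand of its own and signals by pairing with other ErbB receptors, which bind ligands such as amphiregulin, EGF and the neuregulins. Downstream of it lie the MAPK and PI3K pathways, and MAPK signaling switches on its own inhibitors, among them the Sprouty proteins and the DUSP phosphatases. The Neu-NDL transgene encodes a rat Neu with a small deletion outside the membrane that leaves the receptor constantly active. The normal mammary duct has an inner luminal layer, some of whose cells sense estrogen and progesterone, and an outer basal layer of contractile myoepithelial cells.

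The 6 libraries held 32965468 to 48341438 reads counted on genes, and 16899 genes were tested. Nothing in the labels ties a replicate to an animal of its own, and p-values here reflect the spread between libraries, which may be technical. In levels below, CPM are a gene's counts relative to all counts on genes, scaled between libraries by TMM factors, and replicates are given in the order 1, 2, 3. Neu-NDL replicate 1 stood apart from the other Neu-NDL libraries. On the first principal component, which held 76.6% of the variance, it lay at -25.0, against -42.9 and -56.5 for Neu-NDL replicates 2 and 3 and 40.2 to 42.3 for the WT libraries. Over the genes tested, its Spearman correlation was 0.963 with Neu-NDL replicate 2, 0.943 with replicate 3 and 0.95 to 0.955 with the WT libraries. Its fibroblast and matrix genes averaged 7.83 on the log2 CPM scale, against 4.18 and 4.31 in Neu-NDL replicates 2 and 3 and 5.74 to 6.32 in WT organoids. WT libraries resembled each other more closely: the median SD of log2 CPM over genes was 0.29 in Neu-NDL and 0.212 in WT organoids. List counts that moved by over 1.5 times without replicate 1 are given with and without it. In bulk RNA, fewer cells of a type and less RNA per cell cannot be told apart.

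Erbb2, the gene that the transgene adds, was at 5739, 4622 and 8707 CPM in Neu-NDL organoids, against 91.8, 94.7 and 97.7 CPM in WT organoids. Every Neu-NDL library stood far above every WT library, so no library went against its label. The difference came to 6.07 on the log2 scale (SE 0.30, adjusted p = 0.00215 by edgeR's quasi-likelihood test with Benjamini-Hochberg adjustment). Counts on mouse Erbb2 (ENSMUSG00000062312.5, plus strand of chromosome 11, 98412470 to 98437716, GRCm38) can hold reads of the rat transgene, and the 2 sources cannot be separated. Of the 7 other genes tested within 100 kb, which were looked up after the Erbb2 values were known, 1 passed the test. Stard3, a cholesterol transport gene, had 41.0, 51.6 and 64.6 CPM in Neu-NDL and 31.0, 23.9 and 31.7 CPM in WT organoids, without overlap (log2 fold change 0.86, adjusted p = 0.0425). Grb7, an adaptor that binds ErbB2, had 30.3, 50.9 and 46.0 CPM in Neu-NDL and 39.4, 40.2 and 57.3 CPM in WT organoids, with overlapping groups (adjusted p = 0.798).

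Over all genes tested, 1122 were higher in Neu-NDL organoids (6.64%) and 785 lower (4.65%) at an adjusted p under 0.05, which is what called means below. The median log2 fold change over all 16899 genes was 0.03, 5083 genes had an unadjusted p under 0.05, and the counts in the lists below are read against these shares. Leaving out WT replicate 1, 2 or 3 left 22, 24 or 60 calls. Without Neu-NDL replicate 1 there were 4850 calls among 17170 genes tested, 2444 higher and 2406 lower. That fit kept 1890 of the 1907 calls. List counts without that replicate are read against its larger totals, since calls rose over all genes. The direction of all 1907 was the same under every WT library left out. In all 1907 the groups did not overlap, so leaving out a library could hardly turn the direction. Over all genes tested, the groups did not overlap in 6263 (37.1%).

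**Figure D1:**
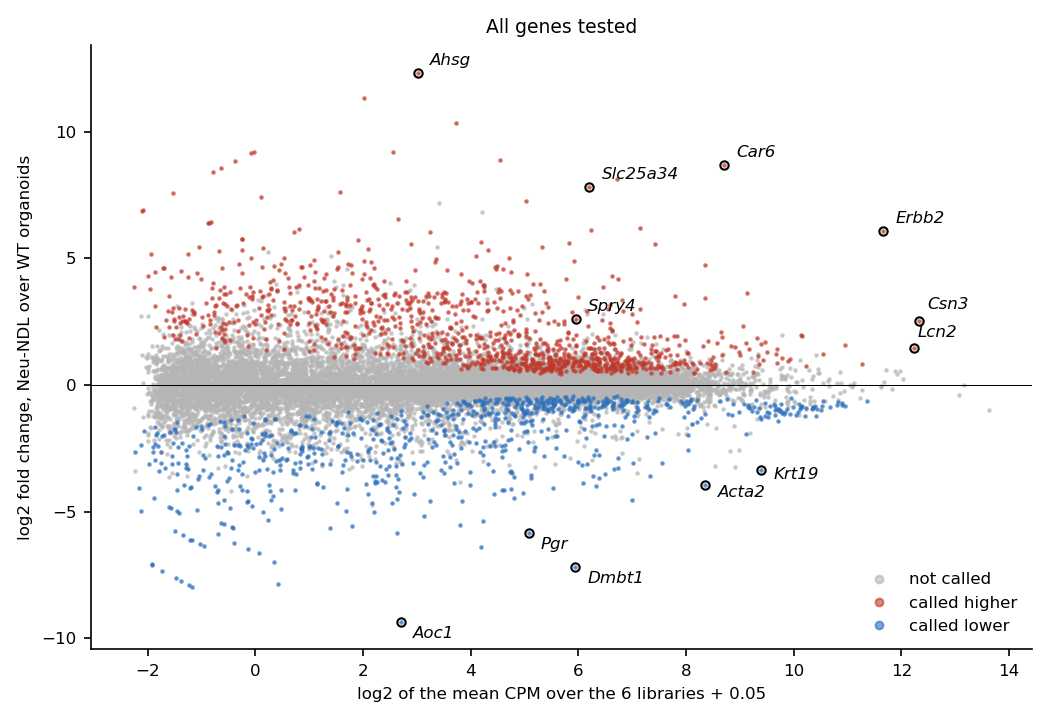
Log2 fold change of Neu-NDL over WT organoids (y axis) against the log2 mean CPM of the 6 libraries plus 0.05 (x axis) for the 16899 genes tested, 1 point each, colored by call. Erbb2 and Csn3 lie at the upper right, at 6.07 and 2.52, among the most abundant transcripts. The fitted value of a gene with no WT count, such as Ahsg, depends on the fit's prior count.

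Of the 1907 calls, 15 were made under all 12 settings tried, which include each library left out in turn, 4 of them higher and 11 lower. Every other gene named as called here lost its call under at least 1 setting. The 4 that rose were Erbb2, Slc25a34, which encodes a mitochondrial carrier, Spry4, a Sprouty inhibitor of receptor tyrosine kinase signaling, and Adrb1, the beta-1 adrenergic receptor. Slc25a34 (ENSMUSG00000040740.7, minus strand of chromosome 4, 141618824 to 141623821, GRCm38) had 105, 218 and 116 CPM in Neu-NDL and 0.735, 0.451 and 0.766 CPM in WT organoids. It was low in all 3 WT libraries and abundant in all 3 Neu-NDL libraries (log2 fold change 7.83, SE 0.44, adjusted p = 0.0026). Adrb1 had 16.6, 27.6 and 23.4 CPM in Neu-NDL and 0.813, 0.859 and 1.20 CPM in WT organoids (log2 fold change 4.56, SE 0.30, adjusted p = 0.00296). The 11 that fell were Areg, the myoepithelial gene Cnn1, the laminin gene Lama1, the Iroquois transcription factor gene Irx4, the gluconeogenic enzyme gene Fbp1, the claudin gene Cldn6, the apical sialomucin gene Podxl, the semaphorin gene Sema3c, AW112010, Fam83e and the lincRNA Gm12349. Podxl had 28.6, 29.6 and 23 CPM in Neu-NDL and 122, 121 and 103 CPM in WT organoids, and the groups were tight and far apart (log2 fold change -2.09, SE 0.15, adjusted p = 0.0031). Lama1 had 5.32, 4.75 and 4.77 CPM in Neu-NDL and 33.0, 34.6 and 25.2 CPM in WT organoids (log2 fold change -2.64, SE 0.18, adjusted p = 0.00296). Irx4 had 0.598, 0.583 and 0.713 CPM in Neu-NDL and 10.6, 12.5 and 12.8 CPM in WT organoids (log2 fold change -4.24, SE 0.25, adjusted p = 0.0026).

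ErbB ligands moved in both directions in Neu-NDL organoids, and the other ErbB receptors did not pass the test. Of 17 ErbB receptors, ligands and partners tested, 3 were higher, Erbb2 among them, 2 lower, and the median log2 fold change was 0.50. These counts were 6 and 3 without Neu-NDL replicate 1. Areg, which encodes the EGF receptor ligand amphiregulin and is an estrogen target in the duct, had 5.47, 4.43 and 5.09 CPM in Neu-NDL and 46.4, 62.9 and 84.2 CPM in WT organoids. The highest Neu-NDL library was far under the lowest WT library (log2 fold change -3.69, SE 0.25, adjusted p = 0.00296). Epgn, which encodes the related ligand epigen, fell to 1.22, 0.874 and 0.763 CPM in Neu-NDL, against 9.08, 9.56 and 14.8 CPM in WT organoids (log2 fold change -3.54, adjusted p = 0.00732). Other ligands of the same receptor rose. Hbegf was at 10.8, 13.8 and 19 CPM in Neu-NDL and 3.70, 4.49 and 3.62 CPM in WT organoids (log2 fold change 1.88, adjusted p = 0.0124), and Egf at 6.75, 9.41 and 10.7 CPM in Neu-NDL and 2.41, 2.43 and 2.79 CPM in WT organoids (log2 fold change 1.81, adjusted p = 0.0131). Tgfa had 69.3, 186 and 91.3 CPM in Neu-NDL and 45.9, 45.3 and 36.7 CPM in WT organoids and did not pass (adjusted p = 0.0532). Erbb3, the gene of the main partner of ErbB2, was at 0.50 in log2 fold change (adjusted p = 0.167), and Egfr also at 0.50 (adjusted p = 0.131).

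Feedback inhibitors and targets of MAPK signaling were called higher in 6 of 20 and lower in none, with a median log2 fold change of 0.66. The fit of all 20 libraries called 1 of them higher, Spry4, and none lower. Spry4 had 99.6, 111 and 107 CPM in Neu-NDL and 14.9, 18.4 and 19.2 CPM in WT organoids (log2 fold change 2.60, SE 0.14, adjusted p = 0.00258). Replicates of each group lay close together, and the lowest Neu-NDL library was well above the highest WT library. Dusp4, a phosphatase of nuclear MAP kinases, had 189.9, 206 and 188 CPM in Neu-NDL and 66.5, 84.3 and 88.9 CPM in WT organoids (log2 fold change 1.28, adjusted p = 0.00922). Ccnd1, the cyclin D1 gene that carries growth signals to the cell cycle, had 874, 888 and 1300 CPM in Neu-NDL and 313, 378 and 292 CPM in WT organoids (log2 fold change 1.64, adjusted p = 0.0107). The transcription factor gene Etv1 (1.62, adjusted p = 0.024), the phosphatase gene Dusp5 (1.14, adjusted p = 0.0374) and Phlda1 (0.76, adjusted p = 0.0227) also rose on the log2 scale. Spry2, a close relative of Spry4, had 112, 102 and 107 CPM in Neu-NDL and 89.8, 105 and 108 CPM in WT organoids, with overlapping groups (adjusted p = 0.654). Among cell cycle regulators, the tumor suppressor locus Cdkn2a rose (36.4, 15.3 and 16.4 CPM in Neu-NDL, 3.62, 3.05 and 2.94 CPM in WT organoids, adjusted p = 0.0115), and Mycl fell (log2 fold change -3.54, adjusted p = 0.01). The list of cyclin D, Myc and CDK inhibitor genes held 2 higher and 1 lower of 19, and without Neu-NDL replicate 1 it held 4 higher and 5 lower.

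**Figure D2:**
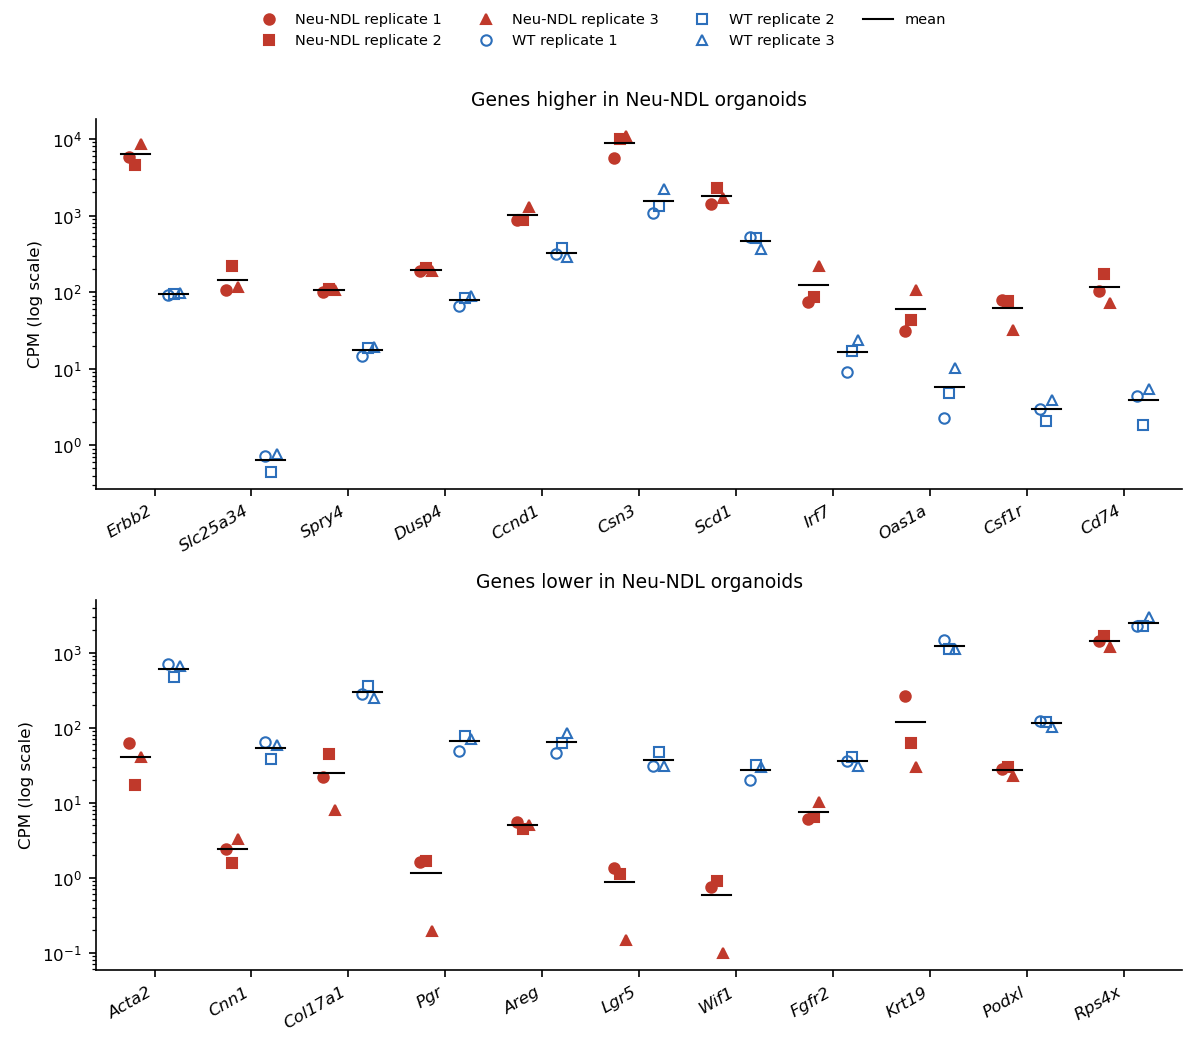
CPM of 22 called genes on a log axis in each library, with Neu-NDL organoids as filled red symbols left of WT organoids as open blue symbols, the symbol shape giving the replicate and the black line the mean. The groups do not overlap for any of these genes, as for all 1907 called genes and 37.1% of all genes tested. The replicates of Spry4 and Podxl lie close together.

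Among the 12 largest relative rises, several genes had under 10 CPM in every WT library and varied widely among Neu-NDL libraries. Car6, a secreted carbonic anhydrase gene, had 11.9, 270.0 and 2226 CPM in Neu-NDL and 2.81, 1.31 and 1.96 CPM in WT organoids (log2 fold change 8.69, SE 1.95, adjusted p = 0.0383). Fetub, a secreted protease inhibitor gene, had 14.0, 155 and 459 CPM in Neu-NDL and 1.15, 0.515 and 0.582 CPM in WT organoids (log2 fold change 8.12, SE 1.40, adjusted p = 0.021). For both genes Neu-NDL replicate 3 was highest and replicate 1 lowest, though still above WT. Ahsg, which encodes fetuin A, a relative of the Fetub product, had no WT count and 0.887, 10.7 and 36.6 CPM in Neu-NDL organoids, at least 628-fold higher with a floor of 3 counts over the WT group (adjusted p = 0.04998). Without Neu-NDL replicate 3 the bound was 227-fold. Dpp10 and Ppp2r2c followed the same order of libraries, at 0.887, 22.5 and 55.8 CPM and 0.805, 17.8 and 37.5 CPM in Neu-NDL, against at most 0.0306 and 0.398 CPM in WT organoids. Adcy8, an adenylyl cyclase gene, had 10.8, 28.3 and 101 CPM in Neu-NDL and at most 0.184 CPM in WT organoids (adjusted p = 0.0115). Gabra4, a GABA receptor subunit gene, was highest in replicate 2, with 7.86, 23.6 and 3.49 CPM in Neu-NDL and at most 0.0429 CPM in WT organoids (adjusted p = 0.0115). Tesc had 79.4, 259.7 and 497 CPM in Neu-NDL and 2.15, 2.41 and 7.02 CPM in WT organoids (adjusted p = 0.0133). Cd177, known as a surface protein of neutrophils, had 6.31, 241 and 200.0 CPM in Neu-NDL and 3.25, 1.93 and 1.23 CPM in WT organoids, a gap that rested on replicates 2 and 3 (adjusted p = 0.0351). Lyz1, a lysozyme gene, had 16.3, 177 and 2.17 CPM in Neu-NDL and 0.420, 0.172 and 0.705 CPM in WT organoids (adjusted p = 0.0486), and shares close sequence with Lyz2, so reads may be split between them.

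By the difference in CPM, which long transcripts make larger, Csn3, Erbb2 and Lcn2 rose most. Csn3, the kappa casein gene of milk, had 5589, 9867 and 10990 CPM in Neu-NDL and 1089, 1332 and 2191 CPM in WT organoids (log2 fold change 2.52, SE 0.37, adjusted p = 0.0136). Lcn2, which encodes the iron-siderophore binder lipocalin 2, had 5108, 8355 and 7764 CPM in Neu-NDL and 2511, 2092 and 3037 CPM in WT organoids (log2 fold change 1.47, adjusted p = 0.0187). In both genes the lowest Neu-NDL library exceeded the highest WT library. On the log2 scale the water channel gene Aqp5 rose by 1.60 (adjusted p = 0.034), the carboxypeptidase gene Cpd by 1.96 (adjusted p = 0.0178) and Papln by 1.21 (adjusted p = 0.0145). Csn3 was the 1 milk and alveolar gene of 16 tested that rose, and 3 fell. In the list 3 were higher and 5 lower without Neu-NDL replicate 1, with a median log2 fold change of -0.44 instead of 0.08. Btn1a1, needed for milk fat secretion, fell to 4.89, 0.904 and 1.92 CPM in Neu-NDL, against 50.7, 46.5 and 41.9 CPM in WT organoids (log2 fold change -4.16, adjusted p = 0.0133). Stat5a, the transcription factor of the prolactin response, had 34.9, 41.2 and 57.8 CPM in Neu-NDL and 70.5, 84.6 and 88.6 CPM in WT organoids (log2 fold change -0.86, adjusted p = 0.0447), and Muc1 fell as well (-1.41, adjusted p = 0.0311). Lalba, the alpha-lactalbumin gene, had 991, 603 and 412 CPM in Neu-NDL and 1688, 1320 and 1563 CPM in WT organoids and missed the threshold (adjusted p = 0.0604). Csn1s1, an alpha casein gene, overlapped between the groups (adjusted p = 0.369).

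Of 24 basal and myoepithelial genes, 13 were called lower in Neu-NDL organoids and 1 higher, and the median log2 fold change was -2.30. Acta2, smooth muscle actin, had 63.2, 17.5 and 40.4 CPM in Neu-NDL and 703, 479.6 and 666 CPM in WT organoids (log2 fold change -3.93, SE 0.49, adjusted p = 0.0107). Cnn1, calponin of smooth muscle, had 2.39, 1.57 and 3.30 CPM in Neu-NDL and 63.8, 38.1 and 58.8 CPM in WT organoids (log2 fold change -4.46, SE 0.35, adjusted p = 0.00509). All 3 Neu-NDL libraries were low for both genes. Of the other contractile genes, Myh11 (-4.06), Actg2 (-4.04), Tagln (-3.51) and the myosin kinase gene Mylk (-2.01 on the log2 scale) fell too, and so did the oxytocin receptor gene Oxtr (-3.10), through which milk ejection is triggered. The contractile gene Lmod1 was not called, with 28.2, 48.5 and 80.3 CPM in Neu-NDL and 37.4, 28.4 and 34.2 CPM in WT organoids (adjusted p = 0.279). Some genes of the hemidesmosome and its laminin fell and others were not called. Col17a1 had 22.1, 44.5 and 7.95 CPM in Neu-NDL and 286, 361 and 248 CPM in WT organoids (log2 fold change -3.58, adjusted p = 0.0202), and Lama3 had 27.9, 20.2 and 11.6 CPM in Neu-NDL and 183, 204 and 193 CPM in WT organoids (log2 fold change -3.28, adjusted p = 0.00851). The integrin genes Itga6 (log2 fold change -0.06, adjusted p = 0.859) and Itgb4 (0.36, adjusted p = 0.176) and the laminin gene Lamb3 (-1.75, adjusted p = 0.0867) did not pass. The P-cadherin gene Cdh3 (-2.60, adjusted p = 0.0201) and Krt17 (-3.16, adjusted p = 0.0257) were also lower.

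The classical basal keratin genes and Trp63 did not pass the test, and their Neu-NDL libraries differed widely. Krt5 had 25.5, 234 and 16.3 CPM in Neu-NDL and 863, 959 and 777 CPM in WT organoids (log2 fold change -3.24, adjusted p = 0.0903). Krt14 had 146, 282 and 15.9 CPM in Neu-NDL and 1192, 799 and 608 CPM in WT organoids (log2 fold change -2.55, adjusted p = 0.115). Trp63, the gene of the basal master regulator p63, had 25.7, 23.3 and 4.11 CPM in Neu-NDL and 59.9, 84.6 and 74.4 CPM in WT organoids (log2 fold change -2.04, adjusted p = 0.0807). For all 3 genes every Neu-NDL library was still below every WT library. Groups without overlap, in either direction, were found for 37.1% of all genes tested. Dst, which links keratins to the hemidesmosome, was the 1 list member that rose (log2 fold change 1.10, adjusted p = 0.0305). Without Neu-NDL replicate 1, 15 members were called lower and 3 higher, and in the fit of all 20 libraries 7 were lower and none higher.

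Of 20 genes in a list of epithelial genes, which also holds luminal genes such as Krt8, 1 was called higher and 2 lower, with a median log2 fold change of -0.17. With Neu-NDL replicate 1 left out, 3 were higher and 2 lower. Epcam, the epithelial adhesion gene, had 993, 1562 and 1647 CPM in Neu-NDL and 1159, 1132 and 1260 CPM in WT organoids (adjusted p = 0.483), and E-cadherin Cdh1 had 441, 395 and 336 CPM in Neu-NDL and 439, 516 and 364 CPM in WT organoids (adjusted p = 0.561). Both genes overlapped between the groups. The luminal keratin gene Krt8 was modestly lower, with 1053, 1084 and 1342 CPM in Neu-NDL and 1929, 1674 and 1838 CPM in WT organoids (log2 fold change -0.65, adjusted p = 0.0447). Krt19, another simple keratin gene, was far lower and uneven, with 263, 63.4 and 29.9 CPM in Neu-NDL and 1456, 1114 and 1126 CPM in WT organoids (log2 fold change -3.38, SE 0.80, adjusted p = 0.0439). Prom1, an apical membrane gene, rose to 107, 227 and 230.2 CPM in Neu-NDL, against 55.3, 63.4 and 70.7 CPM in WT organoids (log2 fold change 1.57, adjusted p = 0.027).

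A list of luminal genes was lower in 5 of 17 and higher in none, and it holds genes of hormone-sensing cells and some of luminal progenitors. Of the 17, 2 had a positive log2 fold change, Kit (0.35, adjusted p = 0.231) and Sox10 (0.69, adjusted p = 0.0536). Sox9 was at -0.01 (adjusted p = 0.987) and Aldh1a3 at -1.83 (adjusted p = 0.0508), so the list's median pools genes that behaved differently. With Neu-NDL replicate 1 left out, 9 of the 17 were lower and 1 higher, with a median log2 fold change of -1.13 instead of -0.70. The fit of all 20 libraries called 3 lower and none higher. Pgr, the progesterone receptor, had 1.61, 1.66 and 0.197 CPM in Neu-NDL and 49.5, 77.8 and 71.2 CPM in WT organoids (log2 fold change -5.84, SE 0.71, adjusted p = 0.0106). Foxa1, the pioneer factor that opens chromatin for the estrogen receptor, had 4.68, 2.59 and 0.271 CPM in Neu-NDL and 37.6, 53.9 and 44.1 CPM in WT organoids (log2 fold change -4.16, adjusted p = 0.0312). Both were lowest in Neu-NDL replicate 3 and far below WT in all 3. Esr1, the estrogen receptor itself, fell less, with 6.21, 6.76 and 6.35 CPM in Neu-NDL and 10.3, 18.6 and 14.2 CPM in WT organoids (log2 fold change -1.16, adjusted p = 0.0342). Areg, described above, and Itga2, a collagen receptor subunit gene that is no marker of hormone-sensing cells (-2.40, adjusted p = 0.0151), complete the 5. The prolactin receptor gene Prlr (138, 146 and 251 CPM in Neu-NDL, 158, 211 and 187 CPM in WT organoids) and the luminal transcription factor gene Gata3 (96.5, 111 and 102 CPM in Neu-NDL, 91.2, 131 and 122 CPM in WT organoids) overlapped between the groups.

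Genes of the Wnt pathway, which maintains mammary stem cells, fell more often than they rose, 9 against 1 of 34, with a median log2 fold change of -0.62. The counts without Neu-NDL replicate 1 were 14 lower and 3 higher, and in the fit of all 20 libraries 3 lower and none higher. The receptor gene Lgr5, which binds R-spondins and marks stem cells, had 1.34, 1.14 and 0.148 CPM in Neu-NDL and 31.4, 47.5 and 31.0 CPM in WT organoids (log2 fold change -5.38, adjusted p = 0.0115). The genes of 2 secreted inhibitors fell as well. Wif1 had 0.764, 0.904 and 0.0984 CPM in Neu-NDL and 20.1, 31.8 and 29.8 CPM in WT organoids (log2 fold change -5.53, adjusted p = 0.0107), and Sostdc1 had 4.91, 4.93 and 2.63 CPM in Neu-NDL and 34.9, 40.4 and 32.7 CPM in WT organoids (log2 fold change -3.11, adjusted p = 0.00702). Members that act for and against the pathway were low together. The ligand genes Wnt5b (-2.00), Wnt6 (-2.47) and Wnt10a (-2.83), the nuclear factor gene Tcf7 (-1.78), Dkk3 (-2.84) and the receptor gene Fzd8 (-0.84) also fell on the log2 scale. The 1 gene that rose was Rspo3, which encodes an R-spondin ligand, with 3.05, 3.93 and 0.763 CPM in Neu-NDL and 0.0262, 0.172 and 0.0613 CPM in WT organoids (adjusted p = 0.0232). The other 24 were not called, among them Axin2 (log2 fold change 0.004, adjusted p = 0.997) and Lef1 (2.88, adjusted p = 0.0764).

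Of the genes of receptors for FGF, the factor in the medium, Fgfr2 and Fgfr3 fell. Fgfr2 had 6.11, 6.47 and 10.1 CPM in Neu-NDL and 35.5, 41.2 and 30.5 CPM in WT organoids (log2 fold change -2.24, SE 0.24, adjusted p = 0.00919), and Fgfr3 had 2.70, 3.15 and 2.56 CPM in Neu-NDL and 12.3, 11.4 and 11.9 CPM in WT organoids (log2 fold change -2.08, SE 0.21, adjusted p = 0.00813). Neither gene's groups overlapped. Fgfr1 overlapped between the groups, with 1098, 622 and 391 CPM in Neu-NDL and 751, 766 and 897 CPM in WT organoids (adjusted p = 0.746). With the FGF carrier gene Fgfbp1 (-2.18, adjusted p = 0.0398), Fgfr2 and Fgfr3 made 3 of 13 FGF genes, and none rose, while 6 were lower without Neu-NDL replicate 1. In the TGF-beta and BMP pathway 4 of 25 rose and 3 fell, and without Neu-NDL replicate 1, 7 were higher and 9 lower. Of those that rose, the receptor gene Tgfbr2 had 322, 303 and 326 CPM in Neu-NDL and 132, 152 and 134 CPM in WT organoids (log2 fold change 1.18, SE 0.12, adjusted p = 0.00867), with smaller rises of the ligand genes Tgfb1 (0.81) and Tgfb2 (1.07) and of Smad3 (0.63). The members that fell were the BMP ligand gene Bmp7 (-2.29) and the BMP target genes Id3 (-1.58) and Id4, which had 4.11, 3.59 and 1.65 CPM in Neu-NDL and 53.3, 74.2 and 51.5 CPM in WT organoids (log2 fold change -4.26, adjusted p = 0.0072). The list members Id1 (-0.11, adjusted p = 0.801), Id2 (-0.27, adjusted p = 0.268) and Smad6 (0.18, adjusted p = 0.647) were not called. Of 18 Notch genes, the ligand gene Dll1 rose (1.21) and the ligand genes Jag1 (-1.45) and Jag2 (-1.84) and the target gene Hey2 (-2.58) fell on the log2 scale. Of these 18, 3 were higher and 6 lower without Neu-NDL replicate 1.

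Interferon response genes formed the list with the second most calls, 20 of 30 higher and none lower, with a median log2 fold change of 2.05. Without Neu-NDL replicate 1 it was 26 of 30, and in the fit of all 20 libraries 17. The mean level of the list on the log2 CPM scale was 5.11, 4.94 and 6.02 in Neu-NDL and 2.49, 3.29 and 3.69 in WT organoids. Oas1a and Oas3 encode synthetases that sense viral RNA. Oas3 had 13.2, 11.7 and 34.3 CPM in Neu-NDL and 0.446, 0.451 and 0.981 CPM in WT organoids (log2 fold change 4.99, SE 0.61, adjusted p = 0.0106), and Oas1a had 30.9, 43.5 and 108 CPM in Neu-NDL and 2.31, 4.83 and 10.2 CPM in WT organoids (log2 fold change 3.40, adjusted p = 0.0316). Irf7, the transcription factor that amplifies the response, had 73.4, 85.6 and 218 CPM in Neu-NDL and 9.18, 16.9 and 23.8 CPM in WT organoids (log2 fold change 2.92, adjusted p = 0.0254). Replicate 3 was the highest of the Neu-NDL libraries for these genes, and no group overlapped. The ubiquitin-like Isg15 (2.17), the restriction factor gene Bst2 (2.35), the signal transducer gene Stat2 (1.59) and the DNA sensor gene Zbp1 (1.87) were also called. Ifit2 was the 1 member with a negative log2 fold change, with 21.9, 19.8 and 16.8 CPM in Neu-NDL and 19.7, 22.7 and 17.4 CPM in WT organoids (adjusted p = 0.915).

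The promoters of several of these genes carry the core of the interferon-stimulated response element, the site through which interferon signaling and IRF factors act. The windows below come from RefSeq (GRCm38.p6) and were picked for holding the motif GAAANNGAAA on either strand. They belong to the 6 called members with the largest rise among those that hold it. Each is written 5′ to 3′ along the gene, lower case, with the motif in capitals (TTTC first where it lies on the other strand). The positions are, in the order shown, chr5:120777690-120777769 (minus strand), chr3:142559964-142560049 (plus), chr5:120907495-120907580 (minus), chr19:34583338-34583451 (plus), chr12:26456528-26456607 (minus) and chr8:71537552-71537637 (minus).
Oas3: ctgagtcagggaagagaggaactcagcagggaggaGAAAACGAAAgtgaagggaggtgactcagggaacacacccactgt
Gbp3: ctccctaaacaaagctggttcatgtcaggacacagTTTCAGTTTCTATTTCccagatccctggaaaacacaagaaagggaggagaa
Oas1a: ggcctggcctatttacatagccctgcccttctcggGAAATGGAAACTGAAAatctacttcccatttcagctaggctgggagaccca
Ifit3: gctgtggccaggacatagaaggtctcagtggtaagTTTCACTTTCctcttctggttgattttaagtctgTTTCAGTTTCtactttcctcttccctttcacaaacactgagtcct
Rsad2: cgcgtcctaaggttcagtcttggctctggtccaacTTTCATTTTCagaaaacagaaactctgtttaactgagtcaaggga
Bst2: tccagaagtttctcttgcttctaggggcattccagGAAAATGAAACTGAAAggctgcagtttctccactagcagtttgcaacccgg

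In these windows Gbp3, Oas1a and Bst2 hold 2 overlapping matches, Ifit3 holds 2 separate ones, and Oas3 and Rsad2 hold 1. Promoter windows of 300 bases (250 before the start and 50 after it) were at hand for 20 of the 30 list members. Of these genes, 12 held the motif, 9 of the 13 called higher and 3 of the 7 not called, against 3.99% of all 27025 genes with a window. Oasl2 (3.49), Oasl1 (3.19) and Irf7 (2.92) rose more than Bst2 (2.35) on the log2 scale and held no match. Oas2 (4.66) and Usp18 (3.29) also rose more and had no window at hand. A match describes the sequence and shows no binding. The CArG box, the site of serum response factor in contractile genes, was searched in the same way in the smooth muscle genes of the basal list. Windows were at hand for 3 of 6 (Acta2, Cnn1 and Mylk), and none of them held a full CArG box, which 1.81% of all genes did.

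Genes of MHC class I presentation, which displays peptides to T cells, rose in 6 of 14 and fell in none. The fit of all 20 libraries called 3 of them higher. The class I heavy chain gene H2-K1 had 614, 717 and 835 CPM in Neu-NDL and 297, 245 and 325 CPM in WT organoids (log2 fold change 1.32, SE 0.18, adjusted p = 0.0111), and its light chain B2m had 783, 564 and 1160 CPM in Neu-NDL and 227, 226 and 349.5 CPM in WT organoids (log2 fold change 1.64, adjusted p = 0.0262). Nlrc5, the transactivator of class I genes, had 10.7, 8.39 and 12.1 CPM in Neu-NDL and 0.971, 1.07 and 1.56 CPM in WT organoids (log2 fold change 3.11, SE 0.30, adjusted p = 0.00781). All 3 genes were higher in every Neu-NDL library. H2-D1, H2-Q7 and the loading factor gene Tapbp complete the 6, and class I genes are near-identical copies whose reads may be split. The peptide transporter gene Tap1 was at 1.01 in log2 fold change and missed the threshold (adjusted p = 0.0539).

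**Figure D3:**
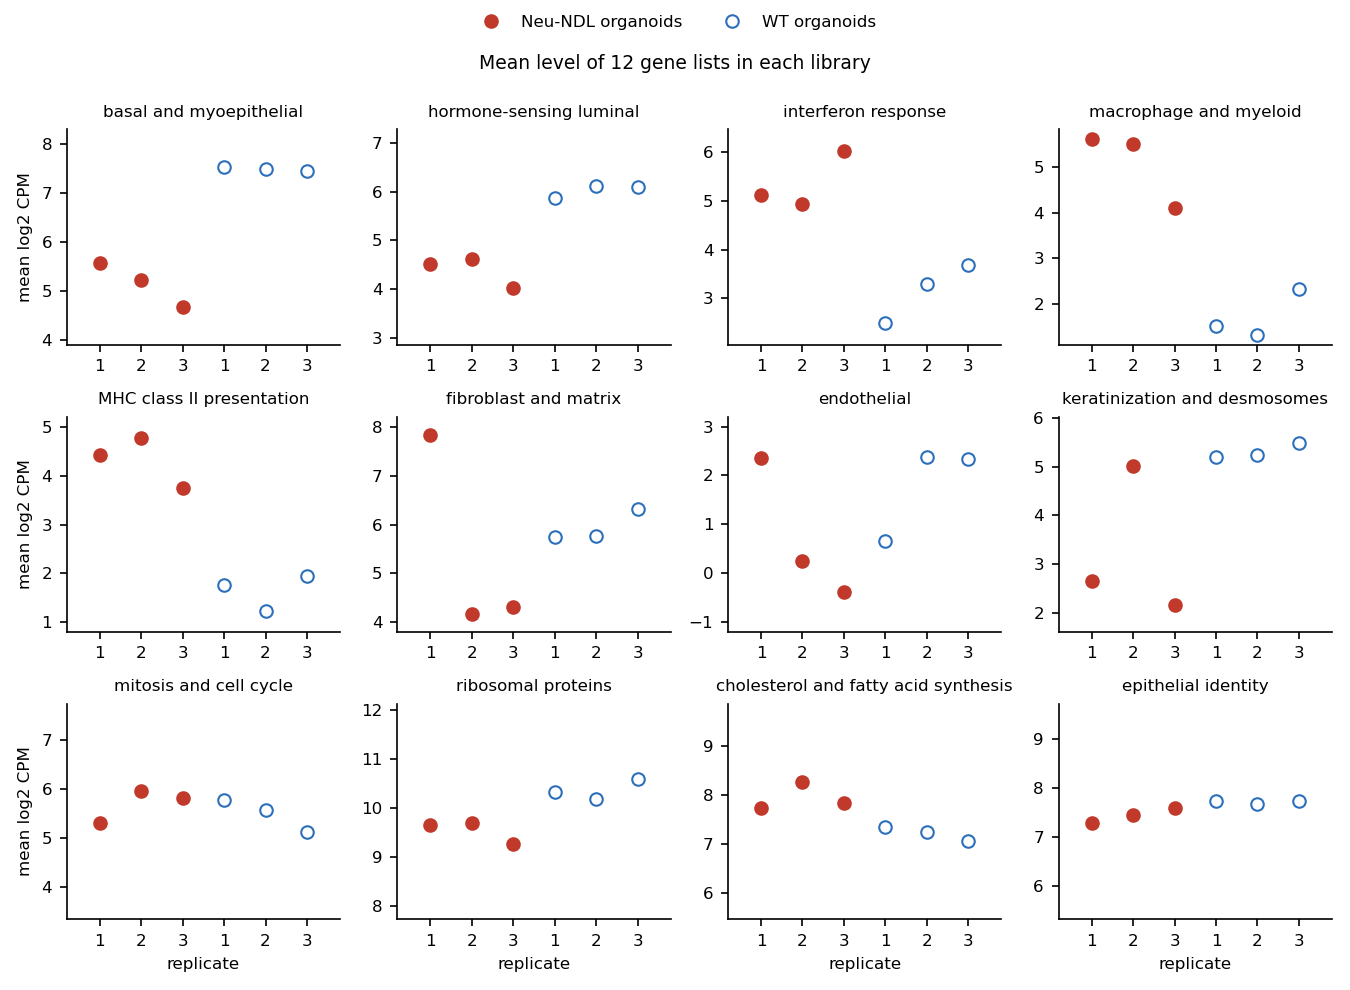
Mean log2 CPM of 12 gene lists in each library (y axis, whose range differs between panels), with Neu-NDL replicates 1 to 3 as filled red points left of WT replicates 1 to 3 as open blue points. Basal, hormone-sensing luminal, interferon, myeloid, class II, ribosomal and cholesterol lists separate the groups. The epithelial list does so narrowly, with at most 7.58 in Neu-NDL and at least 7.66 in WT organoids. In the keratinization list Neu-NDL replicate 2, at 5.01, is above the other Neu-NDL libraries and just below the lowest WT library, at 5.19. The fibroblast list is high in Neu-NDL replicate 1 at 7.83.

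Macrophage and myeloid genes formed the list with the most calls, 22 of 24 higher and none lower, with a median log2 fold change of 3.60. Csf1r, the receptor that macrophages need to survive, had 80.1, 76.5 and 32.1 CPM in Neu-NDL and 2.96, 2.08 and 3.89 CPM in WT organoids (log2 fold change 4.41, SE 0.44, adjusted p = 0.00898). The pan-leukocyte gene Ptprc had 30.7, 21.4 and 12.4 CPM in Neu-NDL and 1.34, 1.22 and 2.57 CPM in WT organoids (log2 fold change 3.65, SE 0.46, adjusted p = 0.0107). C1qa, a complement gene of tissue macrophages, had 87.5, 95.2 and 37.1 CPM in Neu-NDL and 4.72, 2.96 and 6.04 CPM in WT organoids (log2 fold change 4.01, SE 0.45, adjusted p = 0.00974). Replicate 3 was the lowest Neu-NDL library for all 3 genes and still above every WT library. Cd163, a scavenger receptor gene of some macrophages, had the other order, with 5.74, 28.5 and 36.8 CPM in Neu-NDL and 3.02, 2.08 and 3.13 CPM in WT organoids (log2 fold change 3.11, adjusted p = 0.0343). Lyz2, lysozyme of myeloid cells, was the most abundant member, with 1330, 1566 and 212 CPM in Neu-NDL and 61.1, 61.7 and 125 CPM in WT organoids (log2 fold change 3.65, adjusted p = 0.0331). The mannose receptor gene Mrc1 missed the threshold (log2 fold change 3.20, adjusted p = 0.0604), and Cd14 had 117, 63.0 and 36.5 CPM in Neu-NDL and 136, 89.9 and 96.9 CPM in WT organoids (adjusted p = 0.395). Without Neu-NDL replicate 1, 19 members were called higher and 1 lower, and in the fit of all 20 libraries 7 were higher.

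The list's mean level on the log2 CPM scale was 5.60, 5.50 and 4.11 in Neu-NDL and 1.53, 1.33 and 2.34 in WT organoids. Genes of MHC class II presentation, a task of macrophages, dendritic cells and B cells, were higher in 5 of 8 and lower in none. The fit of all 20 libraries called 2 of them higher. Cd74, the invariant chain, had 105, 174 and 71.3 CPM in Neu-NDL and 4.43, 1.83 and 5.39 CPM in WT organoids (log2 fold change 4.92, SE 0.53, adjusted p = 0.0092), and H2-Ab1 had 28.7, 45.1 and 28.5 CPM in Neu-NDL and 2.52, 1.16 and 2.24 CPM in WT organoids (log2 fold change 4.12, SE 0.37, adjusted p = 0.00703). Both groups were well apart. The mean levels of the myeloid and class II lists were lowest of the Neu-NDL libraries in replicate 3, where that of the interferon list was highest. The part of myeloid cells in the interferon, class I and class II results was not tested. Most T, B and NK cell genes were at or near 0, and 17 of 20 had too few counts to be tested, with at most 0.437 CPM in any of the 6 libraries, and Cd3e, which defines T cells, reached at most 0.031 CPM. The NK receptor gene Ncr1 had no count in any of the 6. Cd4, which T cells and some dendritic cells carry, was the 1 of the 3 tested members that rose (2.70, 1.49 and 1.77 CPM in Neu-NDL, 0.157, 0.258 and 0.368 CPM in WT organoids, adjusted p = 0.0149). The other two were not called. Cd79b, a B cell receptor gene, had 6.11, 0.0874 and 0.418 CPM in Neu-NDL and 0.577, 0.215 and 2.54 CPM in WT organoids (adjusted p = 0.68). The T cell kinase gene Lck had 1.38, 0.787 and 0.935 CPM in Neu-NDL and 1.15, 1.59 and 1.16 CPM in WT organoids (adjusted p = 0.567). Of 27 chemokine and cytokine genes, Cxcl10, an interferon target, was called higher, at 0.949, 0.991 and 4.35 CPM in Neu-NDL and 0.0787, 0.107 and 0.337 CPM in WT organoids (adjusted p = 0.0476). Of these 27, 6 were higher and 3 lower without Neu-NDL replicate 1.

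Stromal genes were far higher in Neu-NDL replicate 1 than in the other Neu-NDL libraries, and they did not separate the groups. No fibroblast and matrix gene of 22 was called by edgeR or by DESeq2, and 1 had an unadjusted p under 0.05. Col1a1, fibrillar collagen, had 614, 44.3 and 50.6 CPM in Neu-NDL and 119, 104 and 175 CPM in WT organoids (adjusted p = 0.613), and fibronectin Fn1 had 2280, 271 and 192 CPM in Neu-NDL and 245, 399.8 and 521 CPM in WT organoids (adjusted p = 0.421). Replicate 1 lay above all WT libraries for both genes, and replicates 2 and 3 were below all WT libraries for Col1a1. Without replicate 1, 16 of the 22 were called lower, and the median log2 fold change was -1.71 instead of 0.86. Matrix proteases followed the same split: Mmp3 had 232, 51.7 and 4.18 CPM in Neu-NDL and 18.4, 40.0 and 56.4 CPM in WT organoids. In that list of 22, Adam8, a protease gene of myeloid cells among others, was the 1 that rose (127, 58.6 and 24.9 CPM in Neu-NDL, 10.5, 6.94 and 11.2 CPM in WT organoids, adjusted p = 0.0311), and without replicate 1 10 were lower and 1 higher. Of 18 genes of the epithelial to mesenchymal transition edgeR called none and DESeq2 3, and 4 had an unadjusted p under 0.05. Without replicate 1, 5 were lower and 1 higher, with a median log2 fold change of -0.76 instead of 0.22. Of 14 endothelial genes edgeR and DESeq2 called 0, and 0 had an unadjusted p under 0.05. Without replicate 1, 7 were lower and none higher, with a median log2 fold change of -2.58 instead of -0.88. The endothelial list averaged 2.35, 0.24 and -0.38 on the log2 CPM scale in Neu-NDL and 0.66, 2.38 and 2.34 in WT organoids, so libraries differed within both groups.

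Neu-NDL replicate 2 differed from the other libraries of its group in another way, in genes of stratified epithelium. The keratinization and desmosome list averaged 2.65, 5.01 and 2.16 on the log2 CPM scale in Neu-NDL and 5.19, 5.23 and 5.48 in WT organoids. Krt6a, a keratin of stressed and stratified epithelium, had 7.55, 57.3 and 2.09 CPM in Neu-NDL and 280.2, 211 and 256 CPM in WT organoids (log2 fold change -3.48, adjusted p = 0.0926). Krt1, a keratin of upper skin layers, had 0.268, 57.9 and 1.18 CPM in Neu-NDL and 8.63, 3.44 and 3.89 CPM in WT organoids, so that replicate 2 alone was above WT. Of 23 members 3 were called lower and none higher, and without Neu-NDL replicate 1, 5 were lower and 1 higher. Dsc3, a desmosomal cadherin gene of basal and stratified cells, had 1.88, 6.30 and 0.763 CPM in Neu-NDL and 46.7, 65.3 and 40.5 CPM in WT organoids (log2 fold change -4.11, adjusted p = 0.0247), with Dsc1 (-3.91) and Pkp3 (-0.54) the other 2 that fell.

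**Figure D4:**
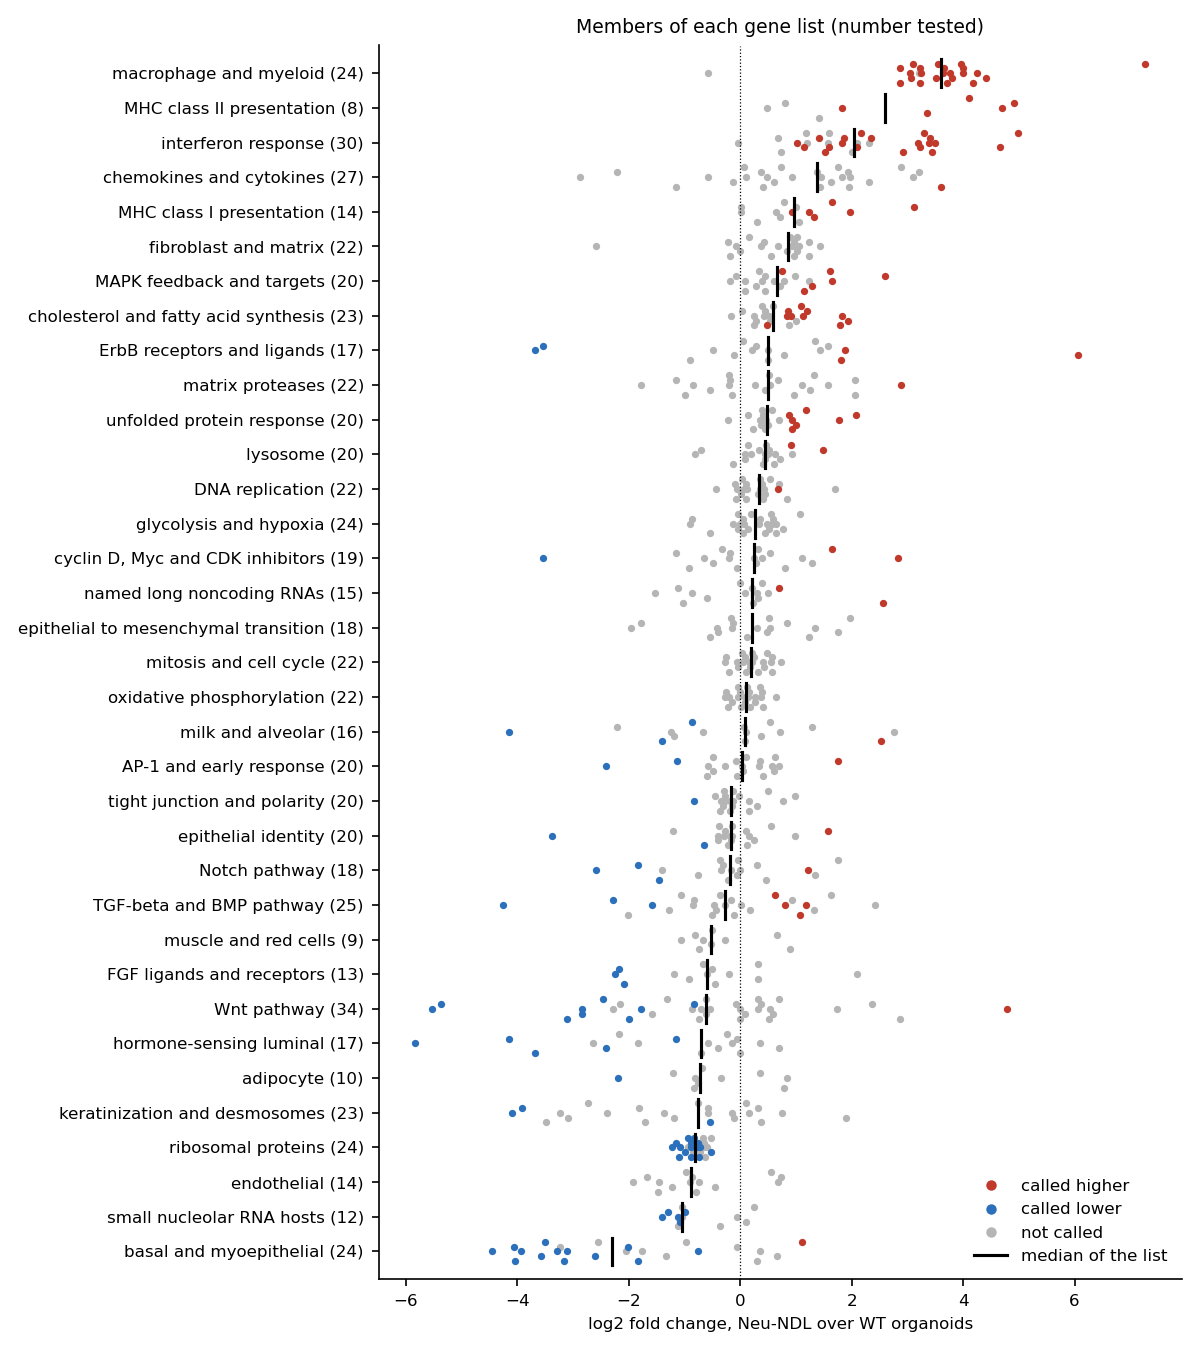
Log2 fold change of Neu-NDL over WT organoids (x axis) for each tested member of 35 gene lists (rows, number tested in brackets), colored by call, with the list's median as a black bar. The T, B and NK cell list is left out, since 3 of its members were tested. Medians run from 3.60 for macrophage and myeloid genes to -2.30 for basal and myoepithelial genes.

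Of 23 cholesterol and fatty acid synthesis genes 10 were higher in Neu-NDL organoids and none lower, with a median log2 fold change of 0.59. Scd1, a fatty acid desaturase gene, had 1422, 2307 and 1680 CPM in Neu-NDL and 531, 515 and 364 CPM in WT organoids (log2 fold change 1.94, SE 0.25, adjusted p = 0.0106). Dhcr7, the last enzyme of cholesterol synthesis, had 193, 405 and 342 CPM in Neu-NDL and 99.0, 89.7 and 77.1 CPM in WT organoids (log2 fold change 1.82, adjusted p = 0.0154). Insig1, which holds the pathway's transcription factors in check and is itself their target, rose by 1.80 (adjusted p = 0.0196). Replicate 2 was the highest Neu-NDL library for all 3 genes. Scd2, a second desaturase gene (0.83), squalene epoxidase Sqle (0.86) and the regulator gene Srebf2 (0.49) were also called. The other 13 did not pass, among them the fatty acid synthase gene Fasn, with 649, 787 and 530 CPM in Neu-NDL and 567, 434 and 369.7 CPM in WT organoids (adjusted p = 0.166). In the fit of all 20 libraries 1 of the 23 was called.

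Genes of the unfolded protein response, which widens the folding capacity of the secretory pathway, rose in 7 of 20 and fell in none. The chaperone gene Hspa5 had 1009, 1427 and 1339 CPM in Neu-NDL and 725, 624 and 628 CPM in WT organoids (log2 fold change 0.93, SE 0.17, adjusted p = 0.0248), and Sel1l, which serves the disposal of misfolded proteins, had 278, 862 and 804 CPM in Neu-NDL and 146, 169 and 146 CPM in WT organoids (log2 fold change 2.08, adjusted p = 0.0296). The groups did not overlap for either gene. The amino acid stress genes Asns (1.18), Trib3 (0.92) and Chac1 (1.78) were called with them, and in the fit of all 20 libraries no member was.

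Of 24 ribosomal protein genes, 15 were called lower in Neu-NDL organoids and none higher, all 24 had a negative log2 fold change, and the median was -0.81. The fit of all 20 libraries called 11 of them lower. Rps4x had 1424, 1655 and 1196 CPM in Neu-NDL and 2294, 2292 and 2976 CPM in WT organoids (log2 fold change -0.82, SE 0.19, adjusted p = 0.039). Every Neu-NDL library was below every WT library. Tpt1, an abundant gene whose translation is regulated together with that of ribosomal proteins, had 2188, 2115 and 1832 CPM in Neu-NDL and 2858, 3165 and 3552 CPM in WT organoids (log2 fold change -0.64, adjusted p = 0.0458). Host genes of small nucleolar RNAs, whose transcripts often start with a pyrimidine tract as those of ribosomal protein genes do, fell in 5 of 12 and rose in none. Zfas1 had 82.3, 76.0 and 56.6 CPM in Neu-NDL and 176, 158 and 235 CPM in WT organoids (log2 fold change -1.41, SE 0.21, adjusted p = 0.0142), and Gas5, Snhg5, Snhg6 and Snhg8 were the others. Ribosomal protein genes have many processed pseudogenes, so some of their reads may be placed elsewhere. Of 662 processed pseudogenes tested, 39 were lower (5.89%) and 19 higher (2.87%), against 4.65% and 6.64% of all genes.

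Proliferation genes did not separate the groups. Of 22 mitosis genes edgeR called none and DESeq2 1, 1 had an unadjusted p under 0.05, and the median log2 fold change was 0.20. Mki67, the proliferation marker, had 249, 482 and 403 CPM in Neu-NDL and 312, 318 and 186 CPM in WT organoids (adjusted p = 0.345), and Plk1, a mitotic kinase gene, had 29.0, 52.0 and 46.7 CPM in Neu-NDL and 37.1, 28.1 and 20.8 CPM in WT organoids (adjusted p = 0.236). Neu-NDL replicate 1 was the lowest of its group for both, and WT replicate 3 the lowest of its own. Without Neu-NDL replicate 1, 4 of the 22 were called higher. Of 22 DNA replication genes E2f1 was called, with 32.5, 35.1 and 42.0 CPM in Neu-NDL and 26.4, 21.6 and 20.6 CPM in WT organoids (log2 fold change 0.68, adjusted p = 0.0449), and without Neu-NDL replicate 1, 2 were higher. Of 24 glycolysis and hypoxia genes edgeR called none and DESeq2 3, with 5 at an unadjusted p under 0.05 and a median log2 fold change of 0.27. Of these 24, 6 were higher without Neu-NDL replicate 1. Of 22 oxidative phosphorylation genes neither tool called any, none had an unadjusted p under 0.05, and the median was 0.10. With Neu-NDL replicate 1 left out, 4 were higher and none lower, with a median of 0.24. Of 20 lysosome genes the hexosaminidase gene Hexa rose (124, 94.2 and 101 CPM in Neu-NDL, 31.8, 33.1 and 49.5 CPM in WT organoids, adjusted p = 0.0124), and Man2b1 rose by 0.91 on the log2 scale (adjusted p = 0.0387). Of 20 tight junction and polarity genes the polarity kinase gene Prkci fell (83.7, 66.7 and 65.5 CPM in Neu-NDL, 123, 141 and 118 CPM in WT organoids, adjusted p = 0.0211), and of 10 adipocyte genes Pparg fell (3.32, 1.20 and 0.836 CPM in Neu-NDL, 7.03, 8.14 and 9.41 CPM in WT organoids, adjusted p = 0.0466). Of 9 muscle and red cell genes none was called by edgeR or DESeq2 and none had an unadjusted p under 0.05. The lists without Neu-NDL replicate 1 held 4 higher and 2 lower for lysosome, 3 higher and 1 lower for tight junction, 2 higher and 5 lower for adipocyte, and 1 higher and 2 lower for muscle and red cell genes. Of 20 early response genes 1 was higher and 2 lower, and without Neu-NDL replicate 1, 1 was higher and 4 lower. Nr4a1 rose by 1.75 (adjusted p = 0.0325), and Klf4 fell by 2.41 and Ier5 by 1.13 (adjusted p = 0.0156 and 0.0107).

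Of 1278 long noncoding genes tested, 50 were higher (3.91%) and 44 lower (3.44%), shares under those of all genes. Gm16010 (chromosome 9, 97015966 to 97022043, plus strand, GRCm38) had 7.39, 15.1 and 14.7 CPM in Neu-NDL and 0.184, 0.129 and 0.0613 CPM in WT organoids (log2 fold change 6.58, SE 0.52, adjusted p = 0.00484). Gm21718 (chromosome 14, 51311497 to 51317768, plus strand) had no WT count and 1.20, 4.58 and 18.1 CPM in Neu-NDL, at least 312-fold higher (adjusted p = 0.0376). Without Neu-NDL replicate 3 the bound was 113-fold. Gm13387 (chromosome 2, 25122603 to 25145396, minus strand) had 9.39, 22.5 and 84.7 CPM in Neu-NDL and 0.813, 1.01 and 1.07 CPM in WT organoids (log2 fold change 5.33, adjusted p = 0.0196). Gm21718 and Gm13387 shared the order of Car6 and Fetub, lowest in Neu-NDL replicate 1 and highest in replicate 3. Gm9754 and Gm6878, annotated as antisense like Gm16010, rose by 4.85 and 4.48 on the log2 scale. Strand in counting is not given in the sources used here, so reads of antisense genes and their partners cannot be told apart. Gm12349 (chromosome 11, 100291671 to 100293711, plus strand), one of the 15 genes called under all settings, had 0.103, 0.117 and 0.0738 CPM in Neu-NDL and 5.67, 4.81 and 4.57 CPM in WT organoids (log2 fold change -5.64, SE 0.36, adjusted p = 0.00293). Tbx3os2, which lies beside the mammary transcription factor gene Tbx3 on the other strand, fell to 0.0206, 0.146 and 0 CPM in Neu-NDL, against 1.31, 1.70 and 3.62 CPM in WT organoids (adjusted p = 0.0242), and the lincRNA Gm33651 fell to 0.681, 0.495 and 0.959 CPM in Neu-NDL, against 9.42, 5.15 and 11.4 CPM in WT organoids (adjusted p = 0.01). Tbx3 itself did not pass (log2 fold change -2.18, adjusted p = 0.105). Among 15 long noncoding RNAs with known names, Trp53cor1, a p53 target also called lincRNA-p21, had 2.17, 2.39 and 3.44 CPM in Neu-NDL and 0.472, 0.451 and 0.429 CPM in WT organoids (log2 fold change 2.56, adjusted p = 0.0107), and Airn rose by 0.69 (adjusted p = 0.021). Of these 15, 2 were higher and none lower, and without Neu-NDL replicate 1, 2 were higher and 4 lower.

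Among the largest falls in log2 fold change were also genes of secreted and surface proteins. Dmbt1, a mucosal scavenger receptor gene, had 2.17, 0.117 and 0.0984 CPM in Neu-NDL and 141, 139.7 and 85.0 CPM in WT organoids (log2 fold change -7.18, SE 1.08, adjusted p = 0.0148). Klk11, a secreted protease gene, had 0.433, 0.700 and 0.172 CPM in Neu-NDL and 44.3, 26.3 and 37.5 CPM in WT organoids (log2 fold change -6.38, SE 0.51, adjusted p = 0.00549). Aoc1, an amine oxidase gene, was listed at 0, 0.0583 and 0 CPM in Neu-NDL and at 14.6, 12.4 and 11.6 CPM in WT organoids. All 3 were close to absent from the Neu-NDL libraries. Ptn, the growth factor pleiotrophin, fell to 24.7, 4.75 and 1.70 CPM in Neu-NDL, against 208, 268 and 255 CPM in WT organoids (log2 fold change -4.54, adjusted p = 0.034), with replicate 1 the highest of its group. Tenm2, a teneurin adhesion gene, had 0.764, 0.816 and 0.689 CPM in Neu-NDL and 17.4, 20.3 and 16.9 CPM in WT organoids (log2 fold change -4.58, SE 0.22, adjusted p = 0.00215). Tspan18 (-4.59), Sez6 (-4.52) and Cxcl15 (-5.19) were the others among the 12 largest falls on the log2 scale.

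Neu-NDL organoids were then set against 6 day PyMT organoids directly, in a fit of all 20 libraries, to see which differences from normal organoids also set the 2 tumor models apart. Of 18698 genes, 878 were higher (4.7%) and 453 lower (2.42%) in Neu-NDL than in PyMT organoids. Of the genes called higher than in WT organoids, 309 of 1120 were also higher than in PyMT organoids, and of those called lower 149 of 779. Both comparisons share the Neu-NDL libraries. Erbb2 averaged 6196 ± 2089 CPM in Neu-NDL (SD, n = 3), 119 ± 23.4 CPM in PyMT day 6 (n = 3) and 102 ± 10.2 CPM in undated PyMT organoids (n = 2), which is 5.81 on the log2 scale (SE 0.44, adjusted p = 8.77e-06). Slc25a34 averaged 142 ± 58.9 CPM in Neu-NDL, 25.8 ± 16.9 CPM in PyMT day 6 and 3.89 ± 0.382 CPM in undated PyMT organoids (log2 fold change 3.83, adjusted p = 0.0291), and Podxl was lower (log2 fold change -1.44, adjusted p = 0.0296). Both genes thus also differed between the tumor models.

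Acta2 averaged 39.4 ± 22.5 CPM in Neu-NDL, 19.3 ± 5.83 CPM in PyMT day 6 and 30.3 ± 15.7 CPM in undated PyMT organoids (adjusted p = 0.396), and Pgr averaged 1.12 ± 0.806, 0.927 ± 0.888 and 1.27 ± 1.33 CPM in the same order of groups (adjusted p = 0.985). Of the 24 basal genes 1 was higher and 1 lower than in PyMT organoids, and 1 was higher and 7 lower without PyMT day 6 replicate 3. Of the 30 interferon genes Usp18 (2.19) and Gbp3 (1.68) were higher on the log2 scale. Myeloid genes were higher in 15 of 24. Adgre1, a macrophage surface receptor gene, averaged 34.0 ± 15.7 CPM in Neu-NDL, 4.05 ± 6.14 CPM in PyMT day 6 and 1.03 ± 0.267 CPM in undated PyMT organoids (log2 fold change 4.05, SE 0.80, adjusted p = 0.0121). The SD of the day 6 group exceeds its mean, and its replicate 3 stood apart in an earlier analysis of these data. Without that library Adgre1 was higher by 5.54 (SE 0.49, adjusted p = 2.45e-05), and 23 of the 24 myeloid and 14 of the 30 interferon genes were called higher. The receptor gene Erbb4 was higher by 3.89 (adjusted p = 0.0141) and the MAPK phosphatase gene Dusp6 by 1.47 (adjusted p = 0.0233), while the mitotic gene Cdc20 was lower (log2 fold change -1.20, 45.5 ± 10.1 CPM in Neu-NDL, 108 ± 22.5 CPM in PyMT day 6 and 101 ± 15.3 CPM in undated PyMT organoids, adjusted p = 0.0138). Against WT organoids edgeR called none of Erbb4 (adjusted p = 0.109), Dusp6 (adjusted p = 0.061) and Cdc20. Without PyMT day 6 replicate 3 the counts of genes higher and lower than in PyMT organoids were 1972 and 1137. With the Neu-NDL and 6 day PyMT libraries alone they were 7 and 4.

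**Figure D5:**
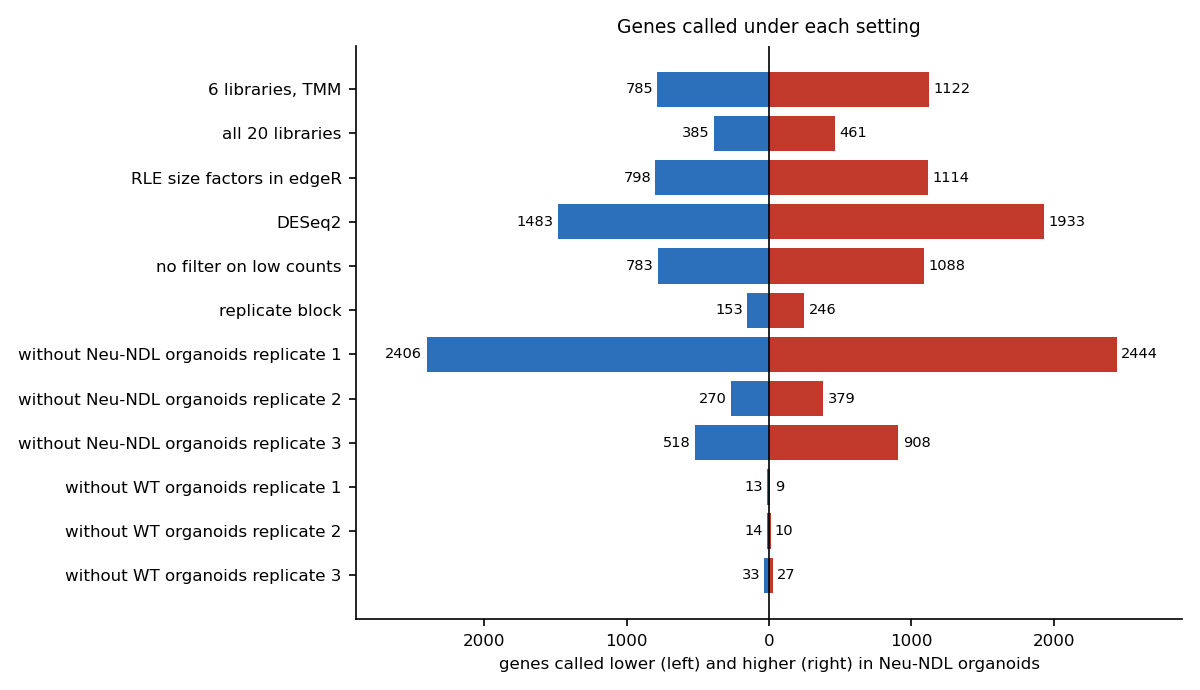
Number of genes called lower (left of 0, blue) and higher (right of 0, red) in Neu-NDL over WT organoids under each setting (rows). The count is 1122 higher and 785 lower in the 6 libraries, falls to 9 to 27 higher when 1 WT library is left out, and reaches 2444 higher without Neu-NDL replicate 1.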

How the data were processed

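Polyadenylated RNA of 3 Neu-NDL and 3 WT organoid samples was sequenced, among 20 libraries. The deposited files hold the authors' raw counts of reads per Ensembl gene, 45318 IDs per file. The submitters' processing notes name CASAVA, FastQC, STAR, HTSeq, DESeq2 and the mm10 build. Tool versions, the annotation release and the use of strand in counting are not given in the sources used here. Names and coordinates come from GENCODE M21 (GRCm38), which matched 44671 IDs.

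Rows of reads not assigned to a gene stayed out: reads on no gene, on several genes and not placed uniquely were 6.07 to 8.37%, 4.93 to 6.54% and 10.99 to 14.52% of each library. The 6 libraries held 32965468 to 48341438 counts on genes. Counts were tested with edgeR 4.0.16 in R 4.3.3 (TMM scaling, filterByExpr, robust quasi-likelihood test, 4 residual degrees of freedom), with p-values adjusted by Benjamini-Hochberg over the 16899 genes tested. SE is that of the log2 fold change, computed back as its absolute value over the square root of the quasi-likelihood F statistic. List levels are means of log2 CPM with a prior count of 2. The comparison with PyMT organoids is a contrast in a fit of all 20 libraries with 1 mean per group, 18698 genes. DESeq2 1.42.0 and the other settings were alternatives, and the edgeR test was tested on simulated counts. The labels do not say whether replicate numbers pair the samples, and the main fit used no replicate block. Same-numbered libraries deviated from their group means with correlations of -0.219, -0.032 and -0.162, and differently numbered ones with -0.062 to 0.186. With 3 libraries per group these values cannot settle whether the samples are paired. A fold against a group with no count is a bound, set by a floor of 3 counts over the group, which covers counting error only.

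The members and gene lists were chosen with earlier results of these data known. Genes named were Erbb2, the 12 largest rises and 12 largest falls (adjusted p under 0.05, mean of at least 10 CPM in the higher group, no overlap, no predicted names), the 12 largest CPM differences, the 5 largest rises and 3 largest falls of long noncoding genes (at least 2 CPM), and up to 5 called members of each list with members that define it. Genes outside that rule, the Erbb2 neighbors and the genes called under all settings among them, were chosen after their values were seen. Some genes that the rule or the lists would name are not reported here.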

Additional observations from a re-analysis of the deposited data

How the results depend on the processing

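The number of calls in the Neu-NDL against WT comparison depended on the setting. Against 1122 higher and 785 lower, the fit of all 20 libraries called 461 and 385, DESeq2 1933 and 1483, and the fit with the replicate block 246 and 153. With 1 library left out in turn, 9 to 2444 genes were higher and 13 to 2406 lower. A group left with 2 libraries shares the spread of the other. The causes were not tested. Size factors of DESeq2 in edgeR and no filter on low counts stayed within 1.5 times. Erbb2 stayed called under every setting. The count of genes higher than in PyMT organoids (878) was 81 with the day 6 libraries alone, 301 with the undated ones alone, 1972 without day 6 replicate 3 and 7 without the other groups in the fit. The count lower (453) was 50, 1137 without day 6 replicate 3 and 4 without the other groups. No gene called in the 6 libraries changed sign, an outcome largely fixed by the lack of overlap in all 1907. Some genes that were not called changed sign. With 1 library left out in turn, the log2 fold change ran from -1.49 to 1.32 for Col1a1 and from -0.75 to 1.72 for Fn1. It ran from -0.46 to 1.90 for Mmp3, -2.89 to 2.46 for Krt1, -0.38 to 0.09 for Prlr, -0.26 to 0.08 for Grb7 and -0.14 to 0.07 for Ifit2. It ran from -0.68 to 0.10 for Fgfr1, -0.22 to 0.14 for Itga6 and -2.07 to 2.48 for Cd79b. Col1a1, Fn1 and Mmp3 were negative without Neu-NDL replicate 1, and Krt1 without Neu-NDL replicate 2. With the replicate block it was -0.37 for Col1a1, -1.24 for Krt1 and -0.25 for Cd79b. At this number of replicates, a gene with no call may still differ.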
